A study of Mus musculus with 8 samples.

Results

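Arntl, Clock, Rora and Rorb, 4 genes whose products activate the circadian clock, were examined for chromatin loops recovered with HA-tagged REV-ERBα. They are 4 of 21883 protein-coding genes in RefSeq's GRCm38.p6 annotation. A loop belonged to a gene when either of its anchors lay in the gene body or within 5 kb of it. It was counted as a loop at the gene ends when an anchor lay within 5 kb of the annotated start or end, and as an inside loop otherwise. By this rule 316 of 277517 listed loops belonged to the 4 genes, namely 31 at zeitgeber time (ZT) 22 and 124 at ZT10 in knock-in liver, 29 and 40 in the libraries with full-length REV-ERBα (WT), and 43 and 49 in those with the form labelled as lacking the hIDR (dhIDR).

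Mouse liver nuclei were profiled by in-situ ChIA-PET, which crosslinks chromatin, cuts and religates it in place and sequences the junctions that an antibody recovers. Each paired-end tag (PET) records a contact between a pair of DNA fragments, at least one of them presumed to be near the tagged protein. The knock-in mice (genotype REV-ERBa3HA/3HA, no virus) carry the tag on their own protein, with 1 library at ZT22 and 1 at ZT10. The other 4 libraries, all at ZT10, came from mice with floxed REV-ERBa and REV-ERBb given 2 viruses, AAV8-TBG-Cre with either AAV8-TBG-3HA-REV-ERBa-WT or AAV8-TBG-3HA-REV-ERBa-delhIDR, in 2 libraries each. The TBG promoter is active in hepatocytes, so other liver cells would keep the floxed genes and make no tagged protein. No age is given. Nothing in the labels says that replicates were separate animals, so p-values cover only how these libraries vary, and that variation may be technical.

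Arntl encodes BMAL1, which pairs with CLOCK, or with its relative NPAS2, to activate genes that carry E-boxes, among them the genes of its own repressors. Rora and Rorb encode nuclear receptors that activate transcription from a short element, the RORE, and REV-ERBα and REV-ERBβ repress through that same element. Arntl is the classic gene under this opposed control, RORα is the broadly expressed member of the family, and RORβ is known mainly from brain, retina and bone.

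The sequence at the start of Arntl is shown first because the ZT10 loops meet there. RefSeq's promoter table holds 300-base windows, 250 bases before to 50 after a transcript start, on the gene's strand. It has 2 overlapping windows for Arntl on chromosome 7 (GRCm38.p6, plus strand), at 113207215 to 113207514 and 113207261 to 113207560. Both transcript starts lie inside the annotated gene, 29.0 kb after its first base. The second window, with AAAGTAGGTTA and AAAGTAGGTCA in capitals, is printed beside the only Rora window (chromosome 9, 68653536 to 68653835, plus strand), a start at which no ZT10 loop was listed.
Arntl: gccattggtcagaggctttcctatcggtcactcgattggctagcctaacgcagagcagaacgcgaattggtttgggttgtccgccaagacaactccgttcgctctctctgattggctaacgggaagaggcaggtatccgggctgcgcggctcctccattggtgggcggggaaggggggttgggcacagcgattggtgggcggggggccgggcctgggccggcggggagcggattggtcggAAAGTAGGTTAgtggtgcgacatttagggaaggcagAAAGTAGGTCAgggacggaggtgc
Rora: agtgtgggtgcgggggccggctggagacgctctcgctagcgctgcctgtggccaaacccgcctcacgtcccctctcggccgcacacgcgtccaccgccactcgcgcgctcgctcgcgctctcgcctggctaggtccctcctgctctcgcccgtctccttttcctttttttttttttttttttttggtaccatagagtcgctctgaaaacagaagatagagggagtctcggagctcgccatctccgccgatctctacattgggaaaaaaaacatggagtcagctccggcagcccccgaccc
The RORE, searched on both strands, was found once in the Arntl window, at bases 277 to 287, and in 126 of 32851 windows (0.384%). The other capitalised run starts at base 241. It is not a RORE by this definition, with T in place of C before its last base. A looser pattern that takes in both runs, chosen after this sequence was seen, occurs in 20 windows (0.0609%). The core AGGTCA, which lies within the RORE match, occurs in 16.3% of windows, a repeat of that core after 2 bases in 3 windows and the E-box CACGTG in 7.15%. The Rora window held none of these motifs, nor did the 2 Rorb windows, and 1 of the 3 Clock windows held AGGTCA on the other strand. A match describes letters and not a bound site.

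The libraries differ in kind, and this touches every value below. Listed PETs on nuclear chromosomes numbered 104161 to 320427 a library, and each listed loop had at least 3 PETs, so an unlisted loop has 0 to 2. The ZT10 knock-in library stood apart, with a median loop span of 40.1 kb against 524 to 1071 kb in the other 5. Loops with both anchors at least 700 bp wide held 83.7% of its PETs and 0.604% to 12.3% of theirs. Hepatocyte markers (10 genes, such as Alb and Fgg) had 986 PETs per 100,000 listed at ZT10 and 18.7 to 47.5 in the other libraries, with 1 of 10 at 0 PETs at ZT10 and 3 to 6 elsewhere. Kupffer cell markers had 0.936 at ZT10, where 5 of 6 were at 0, and 13.1 to 38.2 elsewhere, and stellate cell markers had 7.18 (2 of 6 at 0) and 24 to 55.5. The other lists were within the range of the other libraries at ZT10. Endothelial markers had 36.2 (2 of 6 at 0) against 23.4 to 50.4, cholangiocyte markers 9.99 (4 of 5 at 0) against 0 to 19.9, and lymphocyte markers 9.05 (4 of 6 at 0) against 5.76 to 14.0. Their part in the results below was not tested, and in whole tissue fewer cells of a type and less signal per cell cannot be told apart. Intervals are at 95% and cover counting error only, and PCR copies could make them too narrow.

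Arntl and Rora were looped at ZT10 and Clock and Rorb hardly at all. The PETs of each gene are given over its body and 5 kb either side.

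Arntl (chromosome 7, 113178471 to 113314126, 136 kb) had 259 PETs (exact Poisson interval 228 to 293) in 48 loops at ZT10 and 23 (14.6 to 34.5) in 7 loops at ZT22. The WT replicates listed 6 and 15 PETs, and the dhIDR replicates 24 and 54. As shares of 100,000 listed PETs, ZT10 stood at 80.8 and ZT22 at 17.3, the WT replicates at 5.76 and 7.35, and the dhIDR replicates at 13.5 and 33.6. The ZT10 knock-in library was thus highest, both WT libraries lowest, and dhIDR replicate 2 second.

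Rora (chromosome 9, 68653404 to 69388246, 735 kb), the longest of the 4 genes, had 434 PETs (394 to 477) in 73 loops at ZT10 and 57 (43.2 to 73.9) in 17 loops at ZT22. The WT replicates listed 65 and 90 PETs, and the dhIDR replicates 111 and 94. Per 100,000 listed, ZT10 stood at 135 and ZT22 at 43.0, the WT replicates at 62.4 and 44.1, and the dhIDR replicates at 62.2 and 58.5. Apart from ZT10 the libraries lay close together, and the WT and dhIDR values overlapped.

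Clock (chromosome 5, 76209868 to 76305603, 95.7 kb) had 3 PETs, the lowest number a loop can have, at ZT10 and 11 at ZT22. The WT replicates listed 9 and 18, and the dhIDR replicates 16 and 19. The single ZT10 loop joined 76260438 to 76261088, inside the gene, to a place 885 kb away. Per 100,000 listed the order ran from 0.936 at ZT10 through 8.29 at ZT22, 8.64 and 8.82 in WT and 8.97 in dhIDR replicate 1 to 11.8 in dhIDR replicate 2. All but the ZT10 library had overlapping counting intervals, from 4.14 to 14.8 at ZT22, for instance, and 7.12 to 18.5 in dhIDR replicate 2.

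Rorb (chromosome 19, 18930609 to 19111196, 181 kb) had 7 PETs at ZT10 and 13 at ZT22. The WT replicates listed 13 and 15, and the dhIDR replicates 11 and 6. Per 100,000 listed, ZT10 stood at 2.18 and ZT22 at 9.80, the WT replicates at 12.5 and 7.35, and the dhIDR replicates at 6.17 and 3.74. Both of its ZT10 loops spanned over 2 Mb. As at Clock, the ZT10 library was the lowest.

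**Figure D1:**
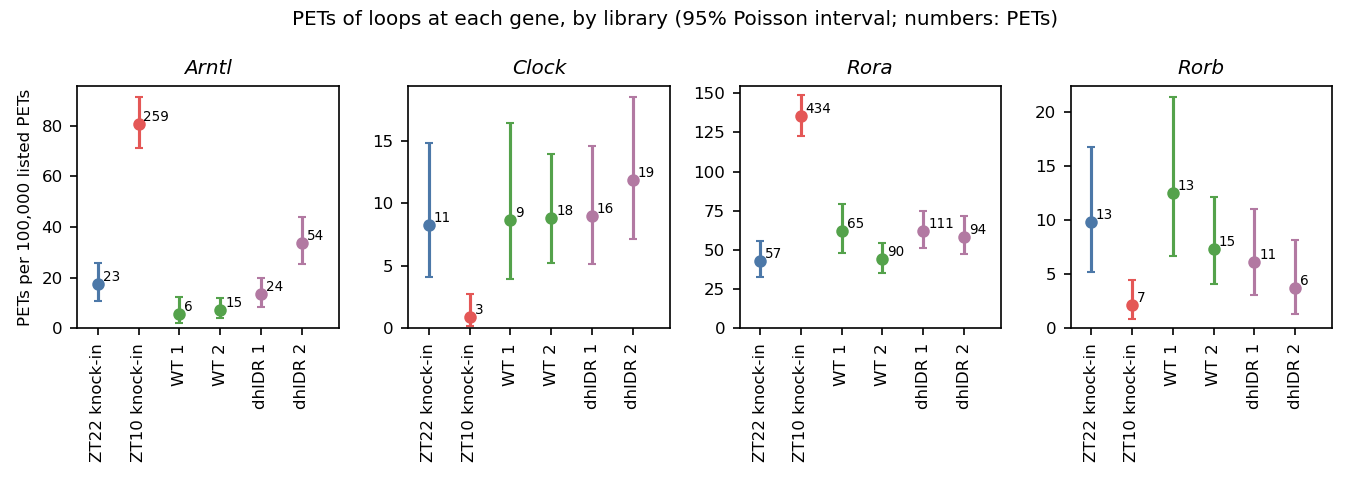
PETs per 100,000 listed PETs at Arntl, Clock, Rora and Rorb (vertical axes, 1 scale a panel) in each of the 6 libraries, with 95% Poisson intervals and the PETs printed beside each point. The ZT10 knock-in library is the highest at Arntl (259 PETs) and Rora (434) and the lowest at Clock (3) and Rorb (7).

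Levels were compared between genes per 100 kb of the counted window. At ZT10 Arntl had 178 PETs per 100 kb, Rora 58.3, Rorb 3.67 and Clock 2.84, against a median of 4.69 and a 90th percentile of 57.4 over the 2758 genes with windows over 100 kb. Arntl ranked 61 and Rora 275 among them, while Rorb ranked 1527 and Clock 1693. The members thus fell into a looped pair and a pair below the median of long genes.

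Outside the ZT10 library that order was gone. At ZT22 the levels were 15.8 PETs per 100 kb at Arntl, 10.4 at Clock, 7.65 at Rora and 6.82 at Rorb, around a median of 9.03. In WT replicate 1 Arntl was the lowest of the 4 at 4.12, and in WT replicate 2 it had 10.3 against a median of 14.1. In dhIDR replicate 2, by contrast, Arntl had 37.1 PETs per 100 kb, rank 6 of the 2758 genes, and in dhIDR replicate 1 it had 16.5, rank 778.

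**Figure D2:**
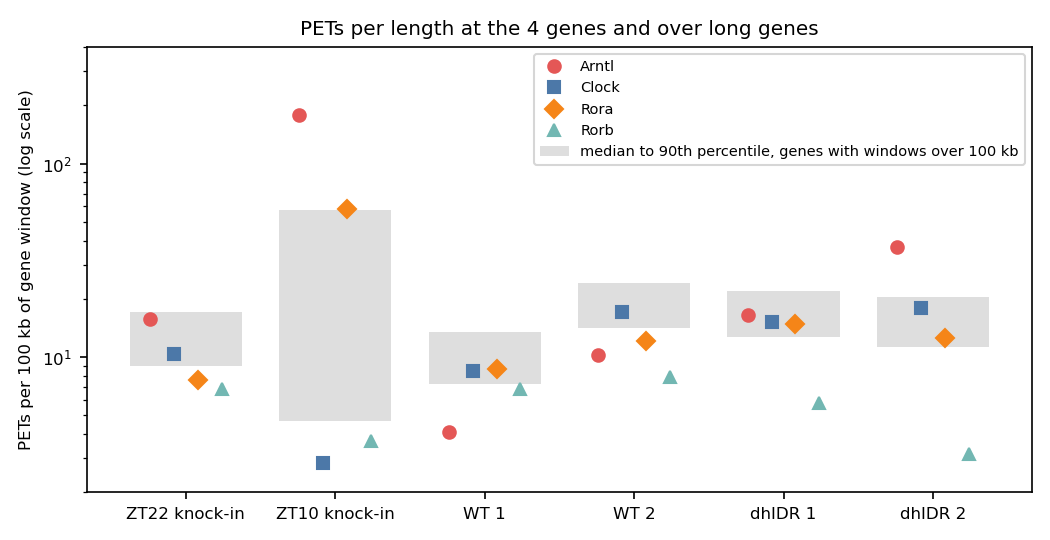
PETs per 100 kb of gene window (log axis) for the 4 genes in each library, with a grey bar from the median to the 90th percentile of the 2758 genes with windows over 100 kb. Arntl (178) stands above the bar at ZT10 and again in dhIDR 2 (37.1), and Clock and Rorb lie below it at ZT10.

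Where the loops sat is the clearest difference among the genes. None of the 48 Arntl loops at ZT10 lay at the annotated gene ends, and the transcript starts in the promoter table are 29.0 kb inside the annotated gene. Of the 48, 37 loops with 216 of the 259 PETs (83.4%) had an anchor in one merged interval of 6220 bp, 113205620 to 113211840, which contains both promoter windows and so the capitalised runs printed above. Of these, 20 loops with 147 PETs had an anchor that itself overlapped a promoter window.

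By PETs on a promoter window, Arntl ranked 39 among 17491 protein-coding genes with a window at ZT10, of which 20.0% had any such loop. No ZT10 loop had an anchor on a window of Clock, Rora or Rorb. In the other libraries these windows had 3 PETs on a Rora window at ZT22 and 3 on a Clock window in WT replicate 2. Most genes were bare there too, since 2.67% to 4.92% of the 17491 had any such loop in those libraries.

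The strongest Arntl loops ran from this start into the gene body. With 17 PETs the first joined 113205995 to 113207529 to 113239202 to 113241575, a span of 33.6 kb. The second had 16 PETs and a span of 53.6 kb, reaching 113259572 to 113261139, and the third had 15 and a span of 44.3 kb, reaching 113249970 to 113251783. The sites inside the gene were also joined to each other, as in a loop of 7 PETs between the regions that the second and the third reach.

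After the start, the anchors with most ZT10 PETs at Arntl were 113258407 to 113261139 with 60 PETs in 10 loops and 113249970 to 113253505 with 42 in 7 loops. With the window cut into 5 equal parts of 29.1 kb from the 5′ side, parts 2 and 3 held 57.3% and 34.7% of PETs counted at anchors, and part 5 held none. Of all ZT10 PETs at Arntl, 79.2% were in loops with both anchors inside the counted window, and 237 of 259 were in loops with wide anchors. The neighbour Btbd10, whose window overlaps that of Arntl, shared 6 PETs with it at ZT10.

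In the other libraries the Arntl start was almost empty. ZT22 had 1 loop there with 3 PETs, joining 113206256 to 113206865 to 113258538 to 113259139. That loop overlapped a ZT10 loop of 3 PETs at both anchors, and it was the only Arntl loop matched between libraries. The 4 AAV libraries listed no loop within 5 kb of either transcript start. Of the 96 genes with at least 100 PETs on a promoter window at ZT10, 28 (29.2%) had a loop on one of the gene's windows in any AAV library, 16 in WT and 17 in dhIDR, so most of these starts, like that of Arntl, were unlisted there.

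The Arntl loops of the AAV libraries were few and had at most 8 PETs, and their spans differed between libraries. In WT, replicate 1 listed 2 loops and replicate 2 listed 4, with at most 5 PETs each and spans from 9.54 to 45872 kb. Both WT replicates held a loop of 3 PETs joining the gene to chromosome 7 near its 67 Mb position, from 67412750 to 113244878 in replicate 1 and from 67370513 to 113242742 in replicate 2. Their anchors did not overlap. The ZT10 knock-in library listed a loop of 4 PETs from 68175873 to 113243707, so such far contacts were not limited to WT. These loops were picked out after the values were seen. In dhIDR replicate 1 the median span was 359 kb, and 1 of 6 loops spanned over 2 Mb. In dhIDR replicate 2, which had the most Arntl PETs of the 4, 9 of 13 loops with 36 of 54 PETs spanned over 2 Mb, and its strongest loops had 8 PETs. No loop of an AAV library at Arntl had wide anchors.

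**Figure D3:**
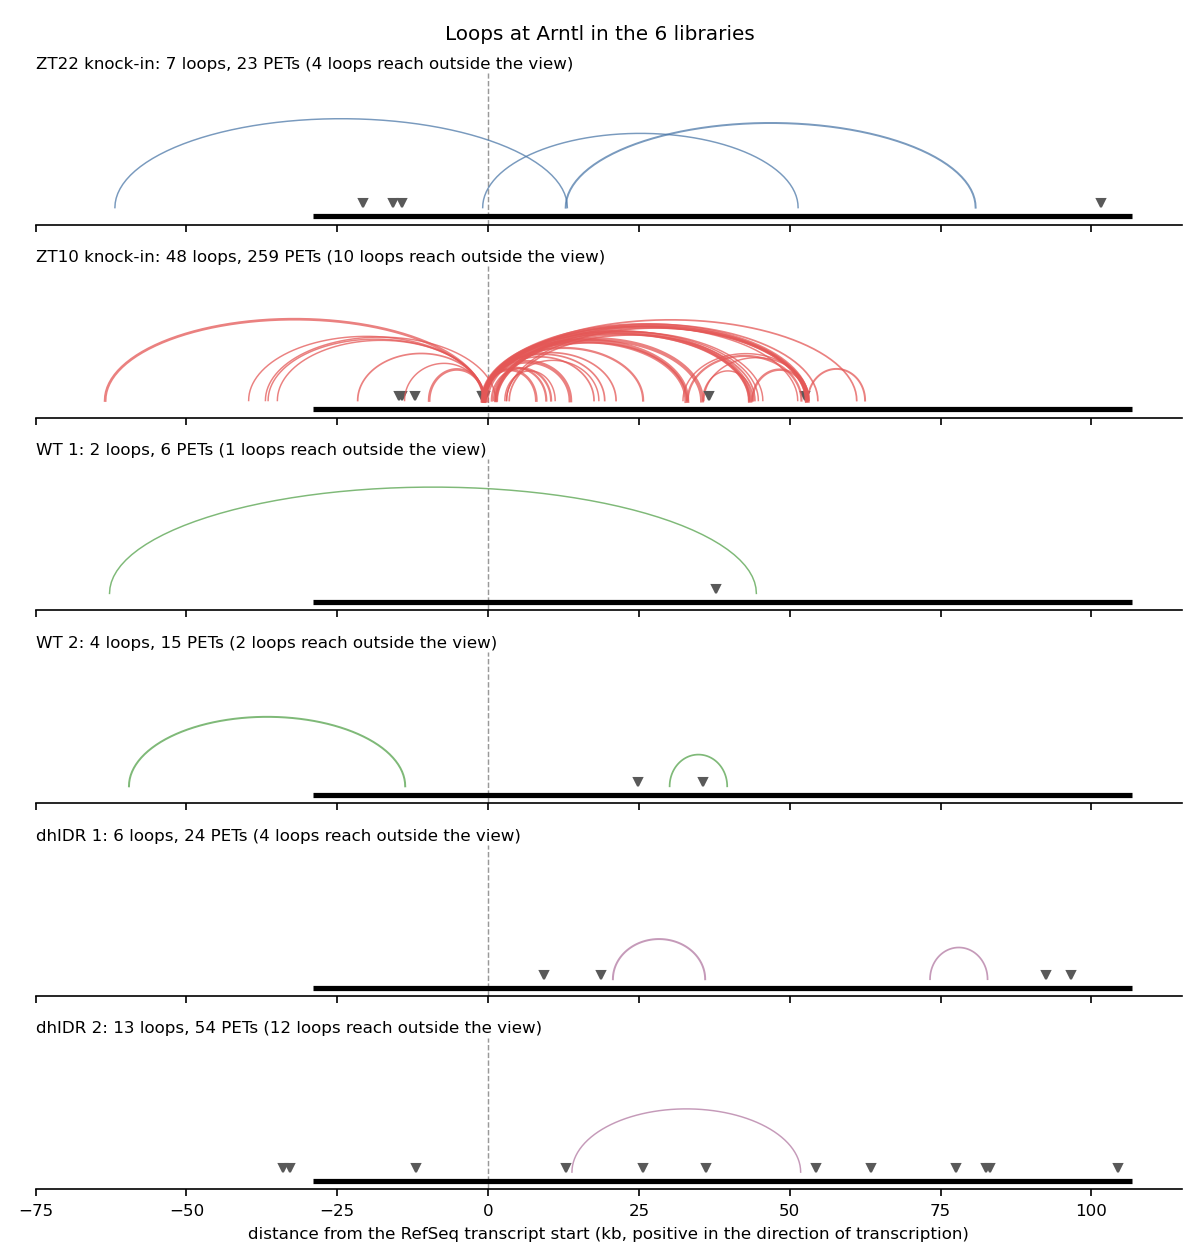
Loops at Arntl in each library against distance in kb from the first RefSeq transcript start (dashed line), with the annotated gene as a black bar. Arcs join the 2 anchors, wider lines mean more PETs (arc height follows span only), and triangles mark anchors whose partner lies outside the view. At ZT10, 37 of 48 loops meet at the start, and none of the AAV libraries lists a loop within 5 kb of it.

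Rora loops at ZT10 left the 5′ start bare and crowded towards the 3′ end. With the window cut into 5 equal parts of 149 kb, part 5 held 72.1% of PETs counted at anchors, part 2 held 20.9% and part 1 none. The single strongest loop of the 4 genes, with 86 PETs, joined 69312121 to 69317700 to 69325460 to 69336495. These anchors were 5579 and 11035 bp wide, over a span of 16.1 kb. The next 3 loops had 15 PETs each, and one of them joined 68824082 to 68826756 to 68882511 to 68885053, in part 2.

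Merged ZT10 anchors show where the Rora loops met. The interval 69311850 to 69317700 took part in 18 loops with 175 PETs, 69325460 to 69336495 in 15 loops with 154, and 69336542 to 69342329 in 13 loops with 67. All 3 lie 658 to 689 kb after the 5′ transcript start. The promoter table holds no other Rora start, so these places are given as positions inside the gene only. Of ZT10 PETs at Rora 97.2% were in loops with both anchors inside the counted window, and 388 of 434 were in loops with wide anchors.

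In the other libraries Rora loops were spread along the gene. Part 5 held 28.0% of anchor PETs at ZT22, 21.6% and 39.8% in WT libraries 1 and 2, and 27.1% and 16.8% in dhIDR libraries 1 and 2. Part 1, bare at ZT10, held 25.3%, 9.28%, 19.5%, 18.8% and 10.9% in the same order. Loops with both anchors inside the window made up 31.6% of PETs at ZT22 and 29.7% to 49.2% in the AAV libraries. The interval with 175 PETs at ZT10 had none in any other library.

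One Rora loop recurred. WT replicate 2 listed 69322647 to 69323272 joined to 69332453 to 69333099 with 4 PETs, and ZT10 listed an overlapping loop with 5 PETs. Of the anchors in the Rora window, those centred in a ZT10 anchor numbered 6 of 23 at ZT22, 3 of 30 and 5 of 35 in WT libraries 1 and 2, and 8 of 37 and 6 of 41 in dhIDR libraries 1 and 2. ZT10 anchors cover 12% of that window, and the shares were 10.0% to 26.1%. At Arntl, where they cover 26.0%, the numbers were 5 of 9, 1 of 2, 2 of 5, 4 of 8 and 7 of 14, in the same order.

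**Figure D4:**
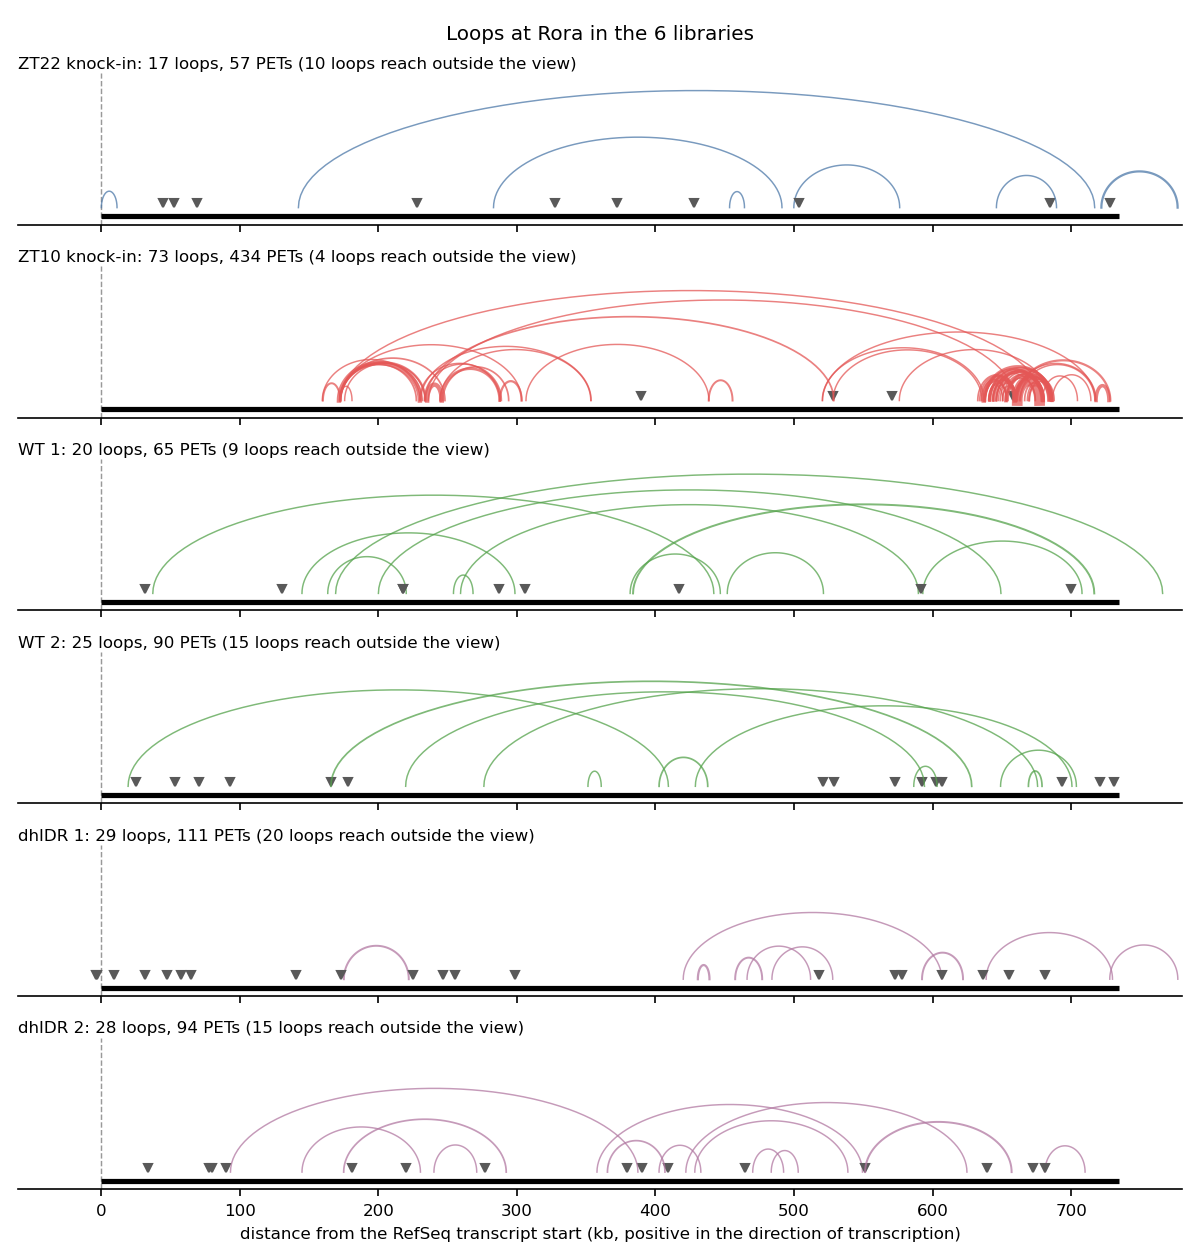
Loops at Rora in each library against distance in kb from the RefSeq transcript start (dashed line), with the annotated gene as a black bar, drawn as in the plot of Arntl loops. ZT10 loops crowd between 658 and 689 kb and none meets the start, whereas the loops of the other libraries are spread over the gene.

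At the gene ends themselves, every member had few PETs, at most 17 in a library. Loops at the ends held 0 PETs at ZT10 for all 4 genes and 3 at ZT22 for Arntl, Clock and Rora. In the AAV libraries they held 17 at Arntl in dhIDR replicate 2, 6 at Clock in WT replicate 2 and 7 in dhIDR replicate 2, 3 and 9 at Rora in WT replicate 2 and dhIDR replicate 1, and 3 and 9 at Rorb in the WT replicates with 3 in dhIDR replicate 2. Clock shares its flanks with Tmem165 and Pdcl2, and 8 of its 11 PETs at ZT22 were in loops that Pdcl2 shares. Rora shared 6 PETs with its neighbour Ice2 at ZT22, and 3 each in WT replicate 1 and dhIDR replicate 1. One Rorb anchor recurred without its partner, at 19079496 to 19080110 with 4 PETs at ZT10 and at 19079506 to 19080109 with 4 PETs in WT replicate 1.

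The time-of-day comparison set the loops listed at ZT10, when REV-ERBα protein is near its peak, against those listed at ZT22. There was 1 library a time, so it compares libraries and has no test. The log2 ratio of shares, ZT10 over ZT22 with a pseudocount of 0.5 PETs, was 2.19 at Arntl (exact Clopper-Pearson interval 1.60 to 2.90) and 1.65 at Rora (1.26 to 2.08). At Clock it was -2.99 (-5.63 to -1.23) and at Rorb -2.12 (-3.73 to -0.73), from 14 and 20 PETs in all, few enough that unlisted loops could change them.

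These ratios need the background. Among the 3720 genes whose PETs at both times came to 30 or more, 2083 (56.0%) had a share at least 2-fold higher at ZT10 and 854 (23.0%) one at least 2-fold lower. Both members with 30 PETs, Arntl and Rora, were among the former. Arntl reached 30 only through ZT10 (259 PETs, against 23 at ZT22). Clock and Rorb, both lower at ZT10, fell short of 30. The filter thus favours genes high at ZT10, and this placement of the members is no separate support. The median gene stood at 1.40, and relative to it Arntl was at 0.79 (0.21 to 1.51) and Rora at 0.25 (-0.14 to 0.68). With that scale 47.4% of 2-fold calls were higher at ZT10, against 70.9% by listed PETs. The interval at Rora thus took in the median gene, and neither gene was 2-fold past it. This position depends on the loops counted. With loops of at least 4 PETs the median gene stood at 3.45, above Arntl at 2.40 and Rora at 1.69. With loops reaching over 5 kb inside the body the median gene stood at 0.75, below Arntl at 2.19 and Rora at 1.65. This count keeps loops that also touch an end, so the PETs of Arntl and Rora were as in the main count.

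Other clock genes, a list of 21 with repressors, output factors and kinases, had PETs listed at ZT10 in 20 cases and at ZT22 in 18. Of all 21883 genes, 11404 had PETs at ZT10 and 12804 at ZT22. Of the 12 with 30 PETs over both libraries, 11 had a share at least 2-fold higher at ZT10 and 1 at least 2-fold lower, with a median log2 ratio of 3.27. By the same count 56.0% of 3720 genes were at least 2-fold higher at ZT10, and the median was 1.40. Many of the clock genes are short. With only loops at gene ends counted, 89.1% of 2085 genes of any length were at least 2-fold higher, and the median was 3.06. That count is unlike the one used for the clock genes, and short genes were not compared apart. The clock gene at least 2-fold lower was Btrc, named after its values were seen, with 12 PETs against 18.

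The 3 clock genes of that list with most ZT10 PETs per length were Bhlhe40, Nr1d1 and Nfil3, a ranking that favours short windows. Bhlhe40, which opposes BMAL1 and CLOCK at E-boxes, had 1865 PETs per 100 kb (304 PETs against 10 at ZT22). Nr1d1, the gene of REV-ERBα itself, had 1519 (265 against 3), and Nfil3, which represses at D-boxes, had 1250 (321 against 7). These genes are short, and their windows of 16.3 to 25.7 kb lie mostly at gene ends, whereas that of Arntl is 146 kb long.

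Npas2, the other partner of BMAL1, had the most ZT10 PETs of the list. It had 570 PETs at ZT10 against 32 at ZT22, a log2 ratio of 2.86 (2.37 to 3.44). The WT replicates listed 35 and 51 and the dhIDR replicates 30 and 39. Arntl2, the relative of Arntl, had 0 against 3.

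**Figure D5:**
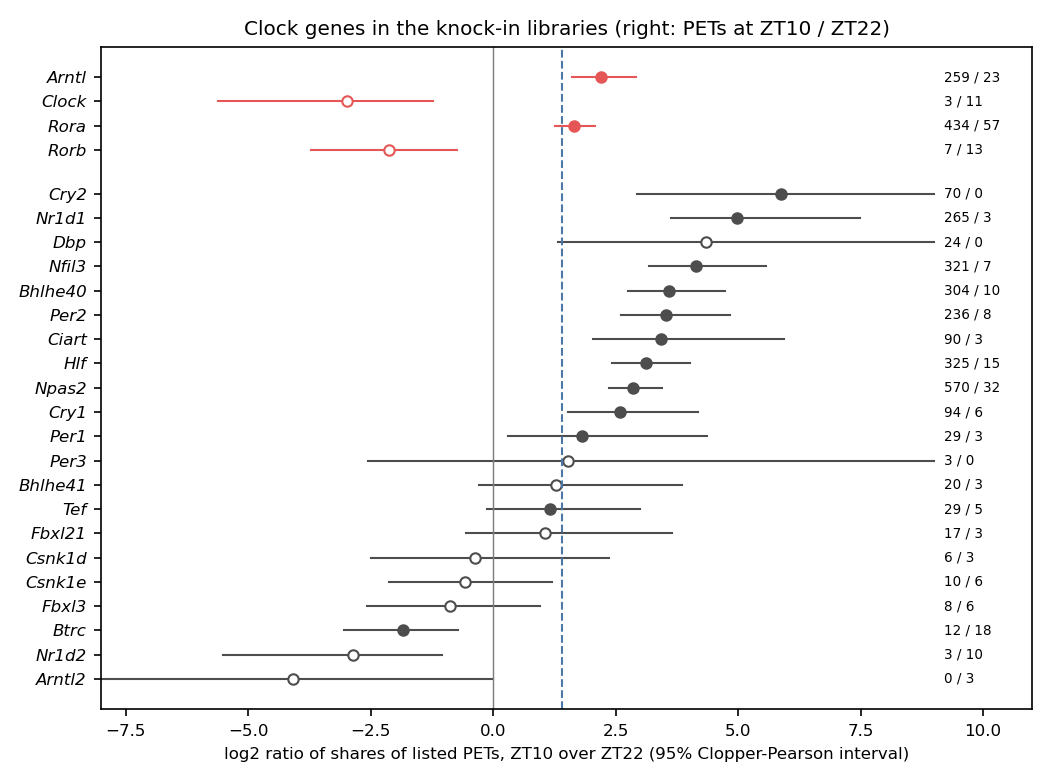
Log2 ratio of shares of listed PETs, ZT10 over ZT22, for the 4 genes (red) and 21 other clock genes (grey) with 95% Clopper-Pearson intervals, PETs printed at the right, filled points for genes with at least 30 PETs and a dashed line at the median gene (1.40). Intervals that reach the edge are open. Arntl (2.19) and Rora (1.65) lie right of the line and Clock (-2.99) and Rorb (-2.12) left of 0.

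The construct comparison asked what changes at these genes when REV-ERBα lacks the hIDR. None of the 4 passed edgeR's quasi-likelihood test, which called 1 of 4607 genes (0.0217%), as did DESeq2. The gene called is Sfi1, in a region of chromosome 11 (3131850 to 3244588) taken as multicopy, though copy number was not measured. The region was set by Sfi1, Eif4enif1 and Gm51877, the genes called when all genes with a PET were fitted. Without it 0 of 4750 genes were called by edgeR, with 128 at an unadjusted p under 0.05. As the region holds the only gene called, that fall to 0 follows from its removal.

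Arntl had the largest difference of the 4, lower in WT by value. Its log2 difference, WT minus dhIDR, was -1.77 (SE 0.65, unadjusted p = 0.0204, adjusted p = 1.00 in edgeR, and 0.386 to 1.00 over the alternatives). An unadjusted p under 0.05 was reached by 124 of 4607 genes (2.69%). Its shares did not overlap between the groups, which held for 18.4% of tested genes in this direction. Without dhIDR replicate 2 the value was -0.97, and with loops of at most 2 Mb it was -1.54.

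Clock was at -0.22 (SE 0.68) and Rora at -0.18 (SE 0.30), and Rorb was higher in WT by value at 0.97 (SE 0.82), each with an adjusted p of 1.00 in edgeR. Shares did not overlap at Clock (lower in WT, as for 18.4% of tested genes) or at Rorb (higher in WT, as for 15.1%). At Rora they overlapped. The margin at Clock was small, 8.82 per 100,000 listed in WT replicate 2 against 8.97 in dhIDR replicate 1. The counting intervals of these libraries overlapped. The SE was smallest at Rora, the member with most PETs. In simulation at this depth and spread edgeR recovered 0 of 91 changes of 4-fold and 0 of 98 of 8-fold among 4493 genes, so such changes can go uncalled. The changed genes were drawn from those above the median level, and all genes were given the same spread. Detection at a gene with as many PETs and as small an SE as Rora was not measured. Of the other clock genes 6 could be tested and 0 passed edgeR's test, with 0 at an unadjusted p under 0.05 and 0 among the single call of DESeq2. Of these, 3 were higher and 3 lower in WT by value, with a median of 0.0070 against -0.020 over all genes tested.

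Genes with the most similar spread over the 6 libraries were found by the distance between shares scaled to sum to 1, among 2718 genes with at least 100 PETs. For Arntl they were Copz1 (distance 0.0449), Ifnar2 (0.0482) and Stra6 (0.0692). Copz1 had 87 PETs at ZT10 and 7 at ZT22, with 3 and 7 in WT libraries 1 and 2 and 8 and 15 in dhIDR libraries 1 and 2. Per listed PET, as at Arntl, ZT10 was highest and dhIDR replicate 2 next. That likeness comes with the choice, since these same shares were used to pick the gene. For Rora they were Cnot8 (0.0348), Atxn2 (0.0364) and Nav2 (0.0398). Nav2 had 490 PETs at ZT10 and 71 at ZT22, with 77 and 97 in WT libraries 1 and 2 and 122 and 79 in dhIDR libraries 1 and 2. Clock, with 76 PETs in all, and Rorb, with 65, were too sparse for this.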

How the data were processed

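The deposited files list, per library, pairs of anchor intervals on a chromosome and counts of PETs joining them. The counts are whole numbers and so appear not to be normalized. Whether material or reads were pooled within a file cannot be read from them. The submitters' processing notes name mm10 as the build. How reads were aligned, duplicates filtered and clusters called is not given in the sources used here. Mitochondrial clusters were left out. PETs were summed per RefSeq gene (GRCm38.p6) over the gene body and 5 kb either side, so neighbours share loops. WT and dhIDR were compared by edgeR 4.0.16's quasi-likelihood test (TMM, filterByExpr, listed PETs as library sizes, Benjamini-Hochberg at 0.05), with DESeq2 1.42.0 as an alternative, checked on simulated data. With deeper simulated libraries of low spread, 98 of 100 changes of 4-fold were found again. A loop was matched between libraries if each anchor overlapped its counterpart by 1 bp or more. Libraries made with anti-CTCF were not analysed here.

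The members, lists and tests were chosen with earlier results of these data known. Named were all members, their 3 strongest loops per library, of which the leading ones are printed, and loops matched between libraries, with up to 3 anchors by ZT10 PETs. Of other clock genes, Npas2 and the 3 with most ZT10 PETs per length were named, with the 3 genes most like each member and the neighbours. One gene of the clock list is not reported here and was left out of its counts. Replicate numbers are shared between WT and dhIDR, but no label says that they pair the libraries.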

Additional observations from a re-analysis of the deposited data

How the results depend on the processing

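No alternative brought a member past edgeR's threshold between WT and dhIDR. Arntl, Rora and Rorb kept their direction in each of the 17 alternatives that gave a value, and Clock turned to 0.041 with loops of at most 2 Mb. Leaving out 1 library in turn gave -2.29 to -0.97 at Arntl, -0.42 to -0.0089 at Clock, -0.32 to -0.027 at Rora and 0.66 to 1.37 at Rorb. With a lone library in an arm, edgeR takes it to vary like the other group. The replicate block gave -1.74 at Arntl and changed no call, and replicate differences correlated at 0.0104 between the groups over 4607 genes. The count of called genes was 1, and 2 to 6 without single libraries (3 without WT replicate 1, 6 without WT replicate 2, 3 without dhIDR replicate 1 and 2 without dhIDR replicate 2). It was 3 with a 25-kb flank or with all genes that have a PET, and 0 with gene ends only, wide anchors only, spans of at most 2 Mb, loops of at least 4 PETs or without the multicopy region. In these last 5 edgeR fits 22, 0, 70, 58 and 128 genes had an unadjusted p under 0.05. Wide-anchor loops gave no fitted value for any member.

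Between ZT10 and ZT22, gene ends alone, with 0 against 3 PETs, turned Arntl and Rora to -4.08. Wide anchors gave 4.86 at Arntl (237 against 0 PETs) and 2.76 at Rora, and the median gene as the scale gave 0.79 and 0.25. Loops of at least 4 PETs moved Clock to -6.20, and spans of at most 2 Mb moved Rorb to -5.61, each with 0 PETs at ZT10. Genes past 2-fold numbered 2937 of 3720 with 30 PETs (2083 higher at ZT10, 854 lower). They numbered 1870 of 2085 at gene ends (1857 higher, 13 lower). With loops reaching over 5 kb inside the body, some also touching an end, they numbered 1677 of 2140 (997 higher, 680 lower). With wide anchors they numbered 1871 of 2357 (1736 higher, 135 lower), and with at least 4 PETs 1666 of 2098 (1538 higher, 128 lower). The cause of these shifts was not tested. Loops under 3 PETs are not listed, and Clock and Rorb, with 76 and 65 PETs over the 6 libraries, rest on the fewest.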
